A study of Homo sapiens with 5 samples.

Results

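The genes described here are 10 precursors of neuropeptides and hormones, CALCA, CALCB, GRP, GAL, NTS, TAC1, VIP, SST, NPY and ADCYAP1. They were taken by name, and each matched 1 of the 64837 gene entries of the count files. Such peptides are made as longer proteins that enter the secretory pathway, where convertases cut them at pairs of basic residues, a carboxypeptidase trims the ends and an amidating enzyme caps many of them. The finished peptides wait in dense-core granules and act on G protein-coupled receptors of the same or neighboring cells. Small cell lung cancer (SCLC) is a neuroendocrine tumor that is known for releasing such peptides, gastrin-releasing peptide above all.

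The counts come from NCI-H209, an established human SCLC line, grown in RPMI-1640 with fetal bovine serum. In the co-cultured group, 2 libraries were made from NCI-H209 cells that had shared their medium for 24 h with human brain microvascular endothelial cells (HBMECs), which sat on a porous Transwell insert above them. In the control group, 3 libraries were made from untreated cells, and whether these stood under an empty insert is not given in the sources used here. The comparison asks what the neighboring HBMECs change in the tumor cells, in 1 cell line and at 1 time point. The HBMECs were grown in RPMI-1640 with fetal bovine serum and also Nu-serum, a serum supplement. The medium used during co-culture is not given in the sources used here. A difference in medium and the presence of HBMECs thus cannot be told apart. Nothing says that the libraries of a group came from separate cultures, so p-values measure the spread between these libraries, which may be technical.

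Library totals on genes ran from 17317045 to 19157348 counts in control and were 18918787 and 15457071 in co-cultured cells. The share of unmapped reads was 8.13% to 8.48% in control and 15.9% and 16.8% after co-culture, and that of reads on no gene was 47.3% to 51.2% in control and 40.1% and 40.8% after co-culture. The part of either in the results was not tested. Control replicate 1 differed most from its group, at 15.9 and 16.1 (chi-square over genes, per degree of freedom) against the other control libraries, which differed from each other by 5.75. Of 15 neuroendocrine markers, 14 passed the filter on low counts, while chromogranin A (CHGA) had at most 1 count in any library. Of the 14, 5 were called higher and 2 lower in co-cultured cells at an adjusted p under 0.05, as were 18.4% and 15.0% of all genes tested, and the list summed to 2818 to 3289 CPM (the usual depth-scaled unit of counts, here with TMM factors) in control and 3959 and 3922 CPM in co-cultured cells. Of 17 endothelial markers, 8 passed the filter and 1, ESAM, which reached 10 counts in co-cultured libraries only, was called higher. Their summed level was 10.4 to 20.04 CPM in control and 13.7 and 14.1 CPM in co-cultured cells, and 6 of them, SOX17, ROBO4 and TIE1 among them, had at most 3 counts in every library. VWF was the highest of the list, with 159, 75 and 87 counts in control against 87 and 90. KDR had 37, 27 and 2 counts in control against 12 and 4, and TEK 31, 24 and 0 against 6 and 3. The part of these marker levels in the results was not tested.

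The results turn on CALCA and CALCB, which lie together on chromosome 11 and arose by duplication, and on GRP. CALCA gives 2 products by alternative splicing, calcitonin, which lowers blood calcium, and the vasodilator CGRP (alpha-CGRP), and CALCB gives the closely related beta-CGRP. The stretches that code for the finished peptides were read from the annotated transcripts, 5′ to 3′ on the coding strand, because they show how far the reads of these genes can be told apart. Capitals mark the bases at which the members of a pair differ, and the calcitonin stretch, which has no partner, is in lower case.
CALCA, alpha-CGRP: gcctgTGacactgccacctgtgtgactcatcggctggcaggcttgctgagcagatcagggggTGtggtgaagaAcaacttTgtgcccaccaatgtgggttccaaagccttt
CALCB, beta-CGRP: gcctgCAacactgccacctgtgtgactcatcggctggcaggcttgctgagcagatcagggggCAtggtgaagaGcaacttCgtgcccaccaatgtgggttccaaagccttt
CALCA, calcitonin: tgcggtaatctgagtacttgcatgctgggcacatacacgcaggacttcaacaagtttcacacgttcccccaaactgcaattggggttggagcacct
GRP, last 10 codons of the peptide: ggcaaccActgggcGGTGggGcacttAatg
NMB, last 10 codons of the peptide: ggcaaccTctgggcCACCggTcacttCatg

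The alpha- and beta-CGRP stretches of 111 bases differed at 6 bases and 3 of 37 codons gave another residue. The longest run shared exactly by any transcript of CALCA and any of CALCB was 69 bases. The read length is not given in the sources used here, so reads that fall within that run and were left uncounted or placed on either gene cannot be estimated, and the values of both genes are uncertain to that extent. GRP and its relative NMB (neuromedin B) shared 23 of the 30 bases that code for the receptor-binding end of their peptides. The GRP stretch lies on chromosome 18, that of NMB on chromosome 15.

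CALCB had the largest rise of the 10 precursors in co-cultured cells. The gene spans 14904997 to 15082342 of chromosome 11 on the plus strand in GRCh38. Its control libraries held 103, 75 and 74 counts and its co-cultured libraries 279 and 290, or 5.48, 4.15 and 3.79 CPM against 15.2 and 19.2 CPM. Both co-cultured libraries lay well above all control libraries. Means were 4.47 ± 0.889 CPM in control (SD, n = 3) against 17.2 ± 2.76 CPM (SD, n = 2), a 3.84-fold rise. On the log2 scale that is 1.94 with a standard error (SE) of 0.19. The quasi-likelihood test of edgeR, adjusted over 20360 genes by Benjamini-Hochberg and used for every adjusted p unless another tool is named, gave CALCB an adjusted p of 0.000144. Its log2 fold change ran from 1.77 to 2.11 over 13 alternative settings and was called in all 13. The annotated model of CALCB is wide, with 12 merged exons that also take in 115 bases of the pseudogene CALCP on the same strand. CALCP had 0 counts in every library. Reads on bases that belong to both genes may have been counted for neither, so this 0 does not show that none fell there. Which exons of CALCB held the reads was not measured. In bulk RNA, more or fewer cells that express a gene and more or less RNA of it per cell cannot be told apart.

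CALCA was higher as well, by a smaller factor, 1.97-fold. It lies on the minus strand of chromosome 11 from 14966668 to 14972354, within the annotated span of CALCB and with 0 exonic bases shared. Its counts were 71, 34 and 63 in control against 97 and 97, which gives 3.78, 1.88 and 3.23 CPM against 5.30 and 6.41 CPM. The groups did not overlap, although control replicate 2 was clearly below the other control libraries. Means were 2.96 ± 0.975 CPM in control (SD, n = 3) against 5.86 ± 0.782 CPM (SD, n = 2), with a log2 fold change of 0.97 (SE 0.27, adjusted p = 0.0238). The call was lost without control replicate 2 (log2 fold change 0.74, adjusted p = 0.0504), without co-cultured replicate 1 (1.12, adjusted p = 0.0814) and without co-cultured replicate 2 (0.84, adjusted p = 0.168). Counts per gene do not separate the calcitonin transcript from the CGRP transcript.

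GRP, the precursor of gastrin-releasing peptide, was by far the most abundant of the 10 genes and was lower in co-cultured cells in all pairs of libraries, without passing the test. It lies on chromosome 18 from 59220168 to 59230774. The control libraries held 4435, 3055 and 3361 counts and the co-cultured libraries 2423 and 2363, or 236, 169 and 172 CPM against 132 and 156 CPM. Control replicate 1 stood above the rest, and the other control libraries were close to co-cultured replicate 2. Its log2 fold change was -0.42 (SE 0.15, unadjusted p = 0.0200, adjusted p = 0.0572). The adjusted p fell under 0.05 in 9 of the 13 alternatives, DESeq2 among them (0.0372). Without control replicate 1 the log2 fold change was -0.24 with an adjusted p of 0.0100. With the replicate number as a block it was -0.47 (adjusted p = 0.0251). The fall of GRP was not called with median-ratio normalization (adjusted p = 0.0622) or unstranded counts (adjusted p = 0.108). It was also not called without co-cultured replicate 1 or 2, at log2 fold changes of -0.29 and -0.53.

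**Figure D1:**
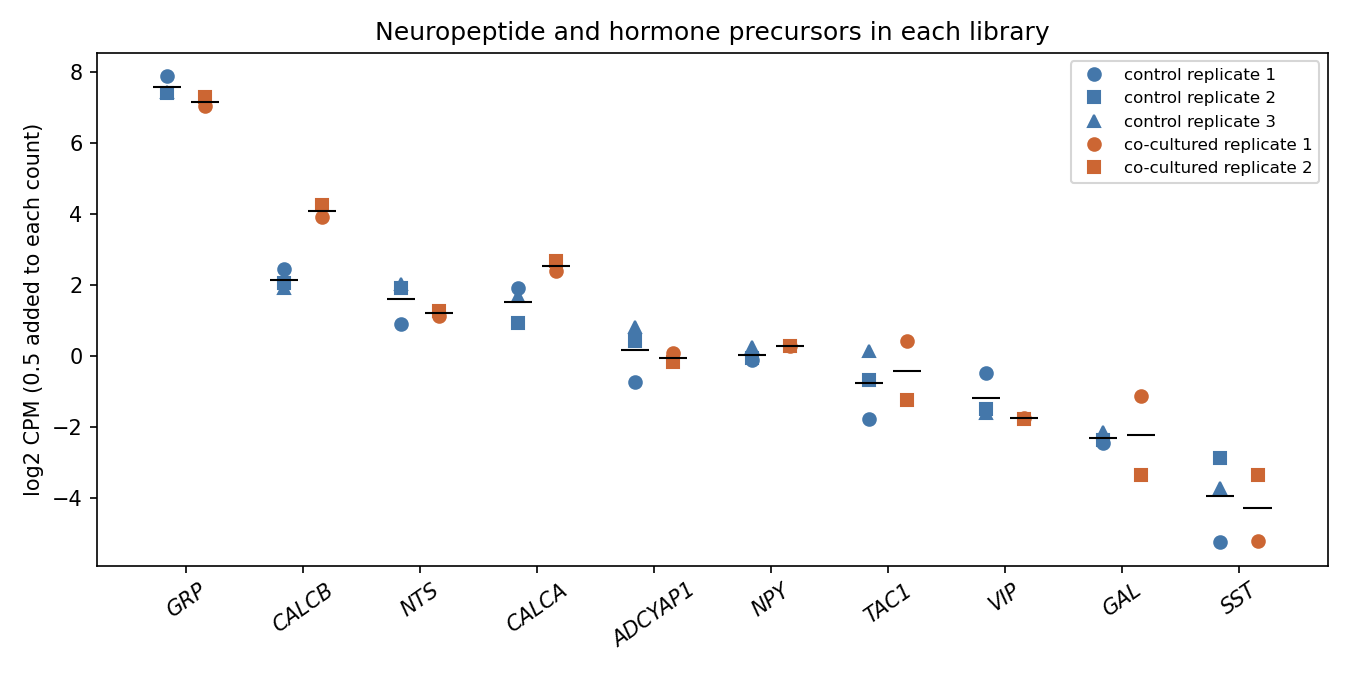
Level of each of the 10 precursors in each library, as log2 CPM with 0.5 added to each count (vertical axis), with genes ordered by their control mean. Blue points are the 3 control libraries, orange points the 2 co-cultured libraries and black bars the group means. The co-cultured points lie above the control points for CALCB, CALCA and, by little, NPY. They lie below them for GRP and, at few counts, VIP, while those of TAC1, GAL and SST are spread widely.

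The other precursors that passed the filter were expressed at a low level and did not pass the test. NTS encodes neurotensin, a peptide of gut and brain, and lies on chromosome 12 from 85874295 to 85882992. The control libraries had 35, 68 and 80 counts of it, the co-cultured ones 40 and 36. Here control replicate 1 was the lowest of the 5 libraries, so the groups overlapped, and the log2 fold change was -0.51 (SE 0.34, adjusted p = 0.285). Without control replicate 1 it was -0.78 with an adjusted p of 0.0106, the single alternative among 13 that called it.

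NPY, the precursor of neuropeptide Y, lies on chromosome 7 from 24284163 to 24291865. Its level hardly varied, with 17, 17 and 23 counts in control against 22 and 18. These are 0.904 to 1.18 CPM in control and 1.20 and 1.19 CPM after co-culture, which do not overlap but differ little, and the log2 fold change was 0.24 (SE 0.32, adjusted p = 0.595). ADCYAP1 encodes PACAP, a relative of VIP whose receptors stimulate adenylate cyclase, and lies on chromosome 18 from 904943 to 912172. It had 11, 24 and 34 counts in control against 19 and 13. The control libraries span the co-cultured ones, and the log2 fold change was -0.35 (SE 0.46, adjusted p = 0.591). It turned to 0.0050 without control replicate 3 and to 0.06 with the replicate number as a block. TAC1, on chromosome 7 from 97731908 to 97740472, encodes substance P and neurokinin A. Its counts of 5, 11 and 21 in control overlap the 24 and 6 of the co-cultured libraries, and its log2 fold change of 0.42 (SE 0.62, adjusted p = 0.636) turned to -0.70 without co-cultured replicate 1.

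VIP, GAL and SST were left out by the filter. VIP encodes vasoactive intestinal peptide, a relaxant of smooth muscle, on chromosome 6 from 152750798 to 152759765. It had 13, 6 and 6 counts in control against 5 and 4, so the co-cultured libraries were the lowest. GAL encodes galanin, on chromosome 11 from 68683779 to 68691175, and had 3, 3 and 4 counts against 8 and 1. SST encodes somatostatin, an inhibitor of hormone release, on chromosome 3 from 187668906 to 187670399. With 0, 2 and 1 counts in control against 0 and 1 it stayed under the floor of 3 counts in each library. That floor corresponds to 0.154 to 0.198 CPM and covers counting error only. A difference between the groups was not detectable at this depth for these 3 genes. When every gene with at least 1 count in any library was tested, their adjusted p was 0.585 for VIP, 0.687 for GAL and 0.848 for SST.

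Of the 10 precursors, 7 were thus tested and 3 were not. Of the 7, 2 were called higher at an adjusted p under 0.05, against 18.4% of all genes tested, and 0 were called lower, against 15.0%. At an unadjusted p under 0.05, 2 were higher and 1, GRP, was lower, and DESeq2 called the same gene lower after adjustment. At the study's criterion for differentially expressed genes, read as a log2 fold change beyond 1 in size at an unadjusted p under 0.05, CALCB was the single precursor called and CALCA fell just short of the fold. Of all genes tested, 5.44% met that criterion upward and 5.01% downward. The co-cultured libraries lay above all control libraries for 3 of the 7 and below them for 1, where 29.4% and 30.0% of all genes did. The median log2 fold change of the 7 was 0.24, against -0.03 over all genes tested. With control replicate 1 left out, 2 of the 7 were called lower, GRP and NTS, and 2 higher.

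**Figure D2:**
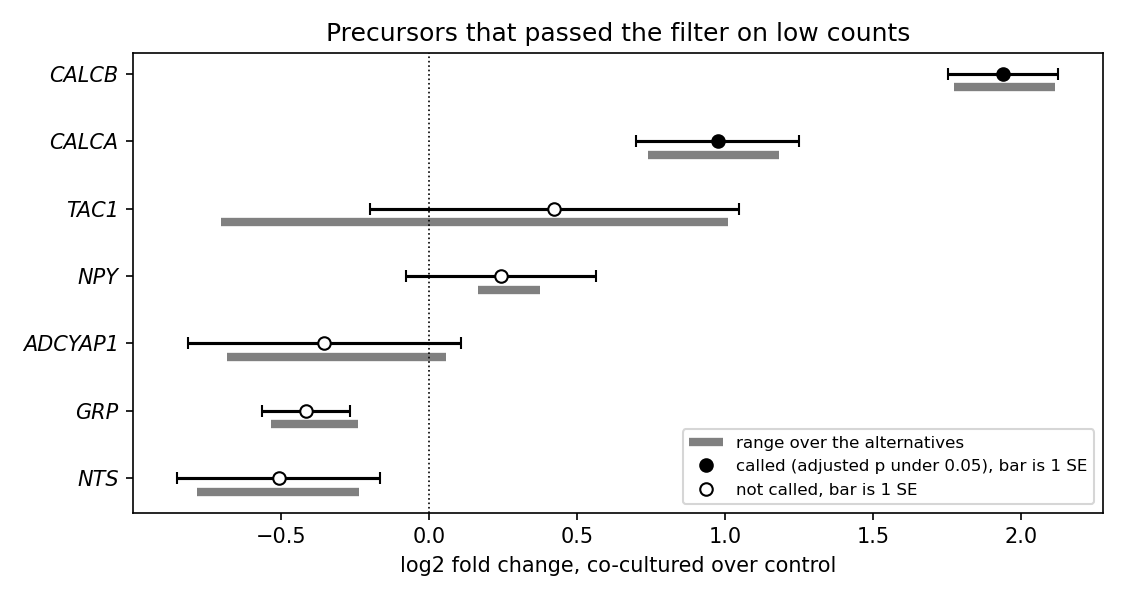
Change in co-cultured against control cells on the log2 scale (horizontal axis) for the 7 precursors that passed the filter. Points with bars are the estimate and 1 standard error, filled where the adjusted p was under 0.05, and grey bars give the range over the alternative settings. CALCB and CALCA are filled, the range of GRP stays below 0 from -0.53 to -0.24, and that of TAC1 reaches from -0.70 to 1.01.

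Levels of different genes were compared per kilobase of exon. With all annotated exons of a gene merged, GRP went from 226 ± 44.4 CPM per kilobase (SD, n = 3) to 170 ± 19.7 (SD, n = 2). It made up 96.3% to 97.8% of the length-scaled sum of the 10 genes in control and 93.7% and 94.1% after co-culture. In control the next genes were NTS at 2.08 ± 0.775, CALCA at 1.39 ± 0.458, CALCB at 1.14 ± 0.226 and NPY at 1.09 ± 0.162 CPM per kilobase (SD, n = 3 each). Neighbors among these 4 differed by less than the larger of their SDs. The lowest were TAC1, ADCYAP1, VIP, GAL and SST, at 0.344 to 0.0873 CPM per kilobase in control, each within the larger SD of its neighbor except that VIP stood slightly further above GAL. In co-cultured cells CALCB came second after GRP, at 4.37 ± 0.702 CPM per kilobase (SD, n = 2), ahead of CALCA at 2.75 ± 0.367, NTS at 1.47 ± 0.0872 and NPY at 1.30 ± 0.0103. Scaled by the longest transcript in place of all exons, CALCB stood above CALCA in control too, at 1.98 ± 0.394 against 1.61 ± 0.531 CPM per kilobase (SD, n = 3).

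**Figure D3:**
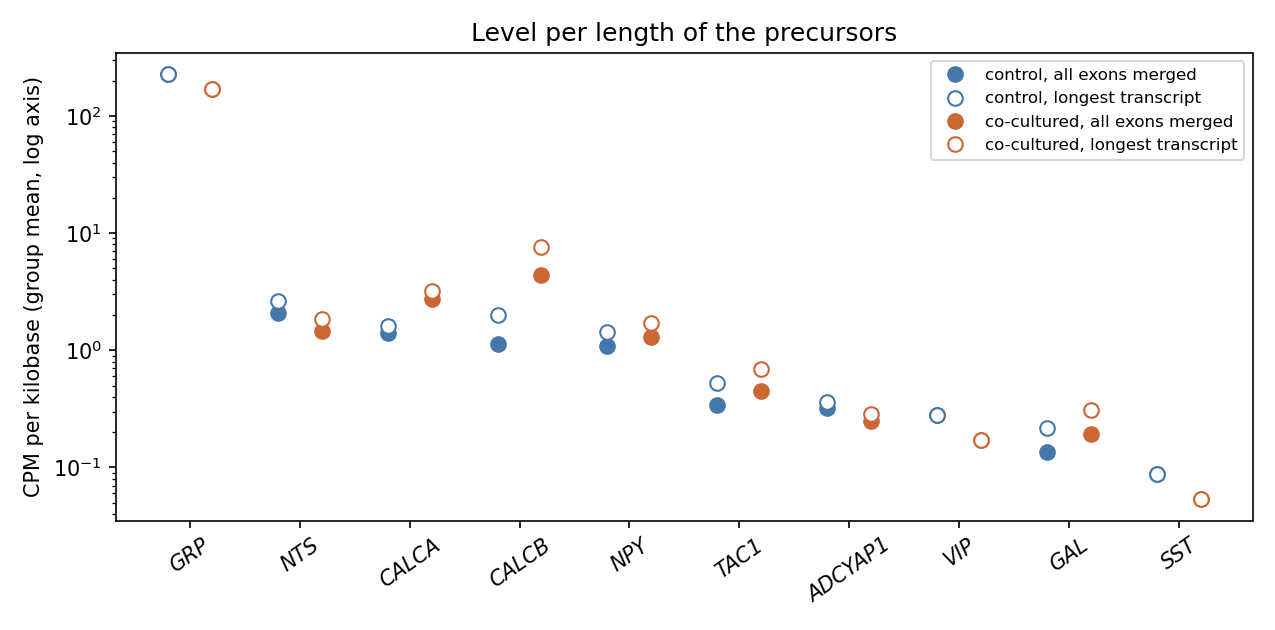
Group mean of CPM per kilobase for each precursor (vertical log axis), scaled by all merged exons (filled) or by the longest transcript (open), with control in blue and co-cultured cells in orange. Open points cover the filled ones where both lengths are nearly equal, as for GRP, VIP and SST. GRP lies far above the rest at 226 and 170 CPM per kilobase, and the 2 lengths set CALCB apart most.

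The promoters of 8 of the 10 genes were held by the RefSeq table for GRCh38.p14 (250 bases before to 50 after the start of transcription), ADCYAP1 with a pair of starts. CALCB and GAL had no entry. The cAMP response element (CRE), the binding motif of CREB, is classically known from the somatostatin gene. Both strands were searched for its palindrome TGACGTCA, for its core CGTCA, which the palindrome also contains, and for the TATA box motif TATAAA. The palindrome was in the window of 1 of the 8 genes, SST, and in 1.85% of 35116 windows of all genes. The core was in windows of 7 of the 8, NPY being the exception, with ADCYAP1 holding it in 1 of its 2 windows, and in 24.6% of all windows. TATAAA was in 3 of the 8, SST, VIP and GRP, and in 11.5% of all windows. The windows of CALCA, which had a called rise, of the most abundant gene and of the gene that holds the palindrome are shown, each 5′ to 3′ in the direction of transcription, with these motifs in capitals.
CALCA, chr11:14972302-14972601, minus strand: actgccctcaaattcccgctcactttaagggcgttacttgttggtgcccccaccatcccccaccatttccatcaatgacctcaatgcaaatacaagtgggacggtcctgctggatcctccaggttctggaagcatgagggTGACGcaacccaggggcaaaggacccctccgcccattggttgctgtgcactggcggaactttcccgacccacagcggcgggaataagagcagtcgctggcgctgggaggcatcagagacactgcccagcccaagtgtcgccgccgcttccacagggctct
GRP, chr18:59219908-59220207, plus strand: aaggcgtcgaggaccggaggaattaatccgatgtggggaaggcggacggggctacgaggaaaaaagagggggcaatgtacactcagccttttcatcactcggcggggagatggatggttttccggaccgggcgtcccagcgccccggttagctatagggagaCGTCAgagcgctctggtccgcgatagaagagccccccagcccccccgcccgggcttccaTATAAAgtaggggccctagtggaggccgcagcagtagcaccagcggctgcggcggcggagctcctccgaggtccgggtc
SST, chr3:187670345-187670644, minus strand: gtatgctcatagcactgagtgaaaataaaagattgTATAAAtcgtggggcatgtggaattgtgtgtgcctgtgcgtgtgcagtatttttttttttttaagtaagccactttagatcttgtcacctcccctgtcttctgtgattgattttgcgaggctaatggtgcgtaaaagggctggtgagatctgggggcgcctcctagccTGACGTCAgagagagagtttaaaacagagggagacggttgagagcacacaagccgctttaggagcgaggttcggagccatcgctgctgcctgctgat
Of the members that carry the core, CALCA was called higher, GRP, NTS, TAC1 and ADCYAP1 were not called, and VIP and SST were not tested. A match is a run of letters and no measured site.

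Precursors become active only after cutting, and genes of that machinery were called in both directions. Of 15 such genes, 11 were tested, 5 were called higher and 2 lower, against 18.4% and 15.0% of all genes tested, and their median change was 0.16 on the log2 scale. PCSK2, a convertase of the dense-core granule, went from 177, 180 and 202 CPM in control to 64.4 and 70.1 CPM. The groups lay far apart, and the log2 fold change was -1.47 (SE 0.093, adjusted p = 2.68e-05). PCSK1, the other neuroendocrine convertase, averaged 99.5 ± 9.41 CPM in control (SD, n = 3) against 132 ± 0.858 CPM (SD, n = 2) and rose by 0.41 on the log2 scale, and lost its call when either co-cultured library was left out. FURIN, which cuts precursors in the Golgi, rose from 45.8 to 51.7 CPM in control to 101 and 108 CPM, a log2 fold change of 1.09. PAM, the enzyme that amidates the ends of CGRP, GRP and NPY among others, averaged 47.1 ± 1.88 CPM in control (SD, n = 3) against 93.8 ± 8.92 CPM (SD, n = 2) and rose by 0.99 on the log2 scale. The carboxypeptidases CPD and CPE had log2 fold changes of 0.61 and 0.41. CPE was called in only 6 of 13 alternatives, whereas PCSK2, FURIN, PAM and CPD were called in all 13. The other call was PCSK4, a convertase known from germ cells, with a log2 fold change of -1.20, named here after its values were seen. SCG5, which encodes 7B2, the partner of PCSK2, reached at most 5 counts in a library and was not tested.

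**Figure D4:**
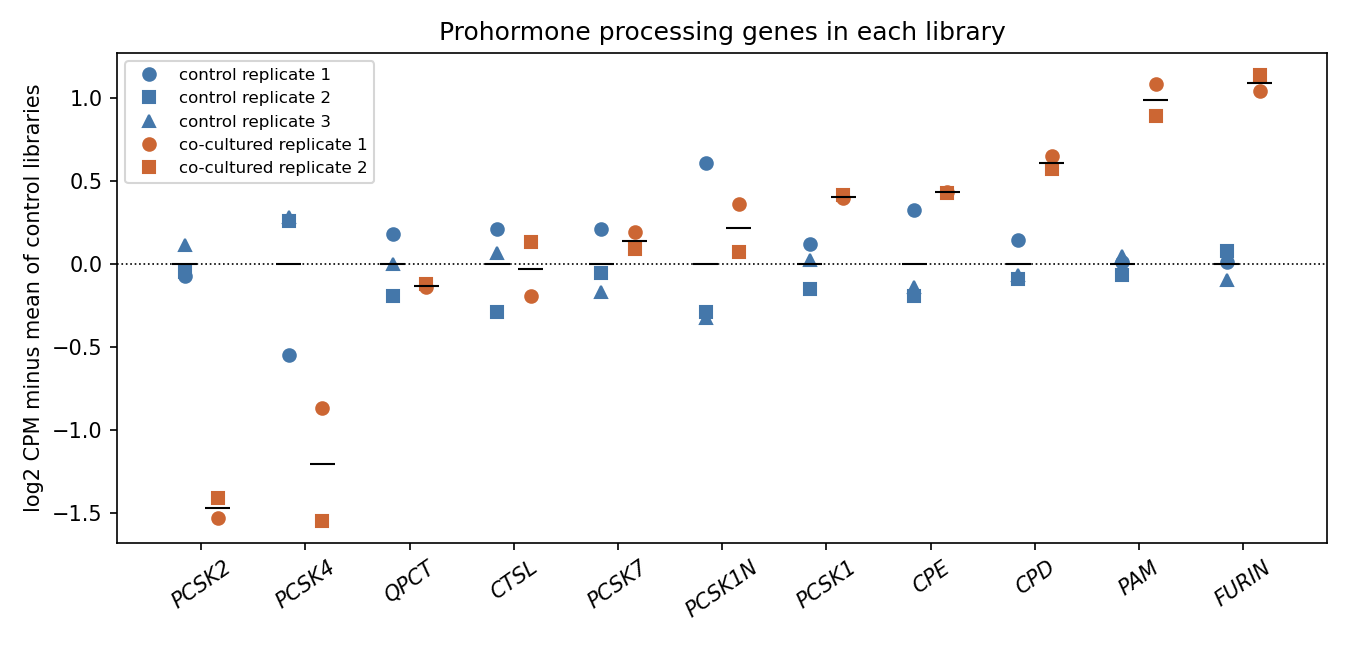
Log2 CPM of the 11 processing genes tested, in each library, minus the mean of the control libraries (vertical axis). Blue points are control libraries, orange points co-cultured libraries and black bars group means. PCSK2 lies lowest, near -1.47, and PAM and FURIN highest, near 1, with little spread within either group.

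Receptors of the 10 peptides were mostly scarce in these cells. Of 29 receptor and accessory genes, 14 were tested and 11 had at most 3 counts in every library, GRPR, the receptor of gastrin-releasing peptide, among them with at most 2. Of the 14, 4 were called higher and 3 lower, where 18.4% and 15.0% of all genes were, and their median change was 0.42 on the log2 scale. NTSR1, the main neurotensin receptor, fell from 9.20, 6.97 and 6.20 CPM to 2.68 and 2.97 CPM, a log2 fold change of -1.40 (SE 0.23, adjusted p = 0.00194). Its ranges were far apart, and it was called in all 13 alternatives. SORT1, the sorting receptor sortilin, which also binds neurotensin, averaged 102 ± 13.3 CPM in control (SD, n = 3) against 171 ± 13.6 CPM (SD, n = 2) and rose by 0.75 on the log2 scale. SSTR2, a somatostatin receptor, rose from 36, 58 and 59 counts to 135 and 90 counts, a log2 fold change of 1.30. Its opposite strand held 146, 212 and 243 reads in control, more than the gene itself, and 42 and 55 after co-culture, fewer than the gene, and with unstranded counts its log2 fold change was -0.42. It was not called without co-cultured replicate 1.

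The CGRP receptor pairs CALCRL with RAMP1, and its genes moved apart at very low levels. These and the other calls in the list were named after their values were seen. CALCRL had 20, 7 and 11 counts in control against 28 and 31, a log2 fold change of 1.39 that was called in 6 of 12 alternatives. RAMP1 had 12, 12 and 8 counts in control against 1 and 3, both at or under the floor, and was called lower (adjusted p = 0.0337) but not by DESeq2 or without either co-cultured library. TACR3, a tachykinin receptor, had 11, 7 and 9 counts in control against 22 and 29. SSTR5, a somatostatin receptor, had 12, 10 and 10 against 2 and 3. RAMP1 and SSTR5 reached 10 counts in control libraries only, so both passed the filter through the group where they were high. TACR3 reached 10 counts in a single control library and in both co-cultured ones. The calls of these genes are thus not independent of the filter. TACR3 lost its call without co-cultured replicate 2, and SSTR5 in 5 of 10 alternatives.

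**Figure D5:**
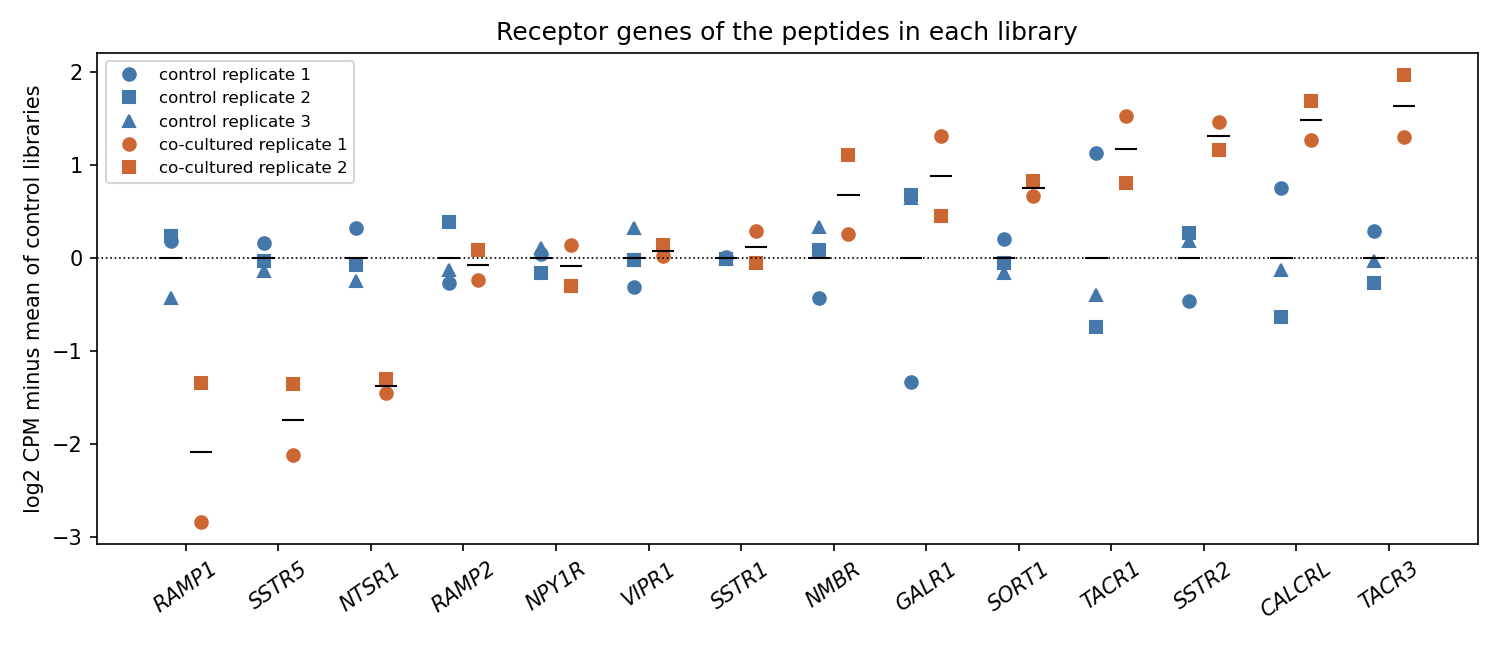
Log2 CPM of the 14 receptor and accessory genes tested, in each library, minus the mean of the control libraries (vertical axis). Blue points are control libraries, orange points co-cultured libraries and black bars group means. NTSR1, SSTR5 and RAMP1 lie below 0 in both co-cultured libraries and SORT1, SSTR2, CALCRL and TACR3 above all control libraries, with wide spread where counts are few.

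Peptidases that break down small peptides changed by small amounts. Of 16 genes, 13 were tested, 6 were called higher and 4 lower (all genes, 18.4% and 15.0%), with log2 fold changes of the called genes from -0.40 to 0.73 and a median over the 13 of 0.15. IDE, the insulin-degrading enzyme, was higher, at 58.1 ± 7.79 CPM in control (SD, n = 3) against 96.4 ± 0.781 CPM (SD, n = 2). TPP2 and NLN (neurolysin, which cuts neurotensin) fell by 0.38 and 0.37 on the log2 scale, and both lost their call when either co-cultured library was left out, NLN also with the replicate block. PREPL stood at 218 to 240 CPM in control and LNPEP at 97.1 to 103 CPM, and both were above 100 CPM in co-cultured cells. PREPL and LNPEP had log2 fold changes of 0.27 and 0.23 and were called in 7 and 5 of 13 alternatives. With the replicate block, 1 of these genes was called higher and 1 lower.

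Among 62 precursors of other regulatory peptides, 21 were tested, 5 were called higher and 1 lower (all genes, 18.4% and 15.0%), and 31 had at most 3 counts in every library. The median log2 fold change of the 21 was 0.33. Among the paralogs of the CGRP genes, ADM and ADM2 rose. ADM, the precursor of the vasodilator adrenomedullin, had 47, 67 and 111 counts in control against 631 and 262. Its log2 fold change of 2.71 (SE 0.33, adjusted p = 0.000464) stayed between 2.13 and 3.12 with any 1 library left out. ADM2 averaged 35.3 ± 7.02 CPM in control (SD, n = 3) against 71.8 ± 7.09 CPM (SD, n = 2) and rose by 1.02 on the log2 scale, whereas IAPP, the islet amyloid precursor of the same family, stood at 0.42 on the log2 scale (adjusted p = 0.313) and turned to -0.40 with unstranded counts. APLN, the precursor of apelin, had a log2 fold change of 2.67, and VGF, a granule protein precursor, one of 1.26. NMB, the relative of GRP, rose from 37, 55 and 35 counts to 84 and 63, a log2 fold change of 0.95 (adjusted p = 0.0219) that was called in 9 of 13 alternatives. Of the other relatives, CORT, akin to SST, stood at -0.95 on the log2 scale (adjusted p = 0.149), and TAC3 and PYY had at most 5 counts in any library. The call in the downward direction was NMU (neuromedin U), with a log2 fold change of -0.63, named after its values were seen. NMU was called in 9 of 13 alternatives, and not with the replicate block.

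The 3 protein-coding genes whose levels followed CALCB most closely over the 5 libraries were SP8, HIST2H3D and HDAC9. Likeness was the root-mean-square difference of log2 CPM after the control mean of each gene was subtracted, over 12837 genes with a mean of at least 1 CPM, and was 0.093, 0.093 and 0.11. SP8 had 14.8, 11.0 and 9.63 CPM in control against 37.6 and 44.5 CPM, the same order of libraries as CALCB within each group. No precursor was called lower, so no such search was made for a fall.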

How the data were processed

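RNA-Seq of NCI-H209 cells was analysed from 5 libraries, 3 control and 2 co-cultured. The authors deposited whole-number counts of reads per gene for each strand, without normalization. The submitters' processing notes name CASAVA 1.8, STAR 2.6.1b, DESeq2 and GRCh38. A further deposited table holds the authors' group means and comparison, of which only gene names were used. The column for 1 strand, on which 92.3% to 93.1% of stranded reads fell, was used, with gene models of GENCODE release 29.

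Genes kept by filterByExpr (20360 of 64837 entries) were scaled by TMM and compared by the quasi-likelihood test of edgeR 4.0.16 in R 4.3.3. Called means a Benjamini-Hochberg adjusted p under 0.05 over all genes tested. The smallest p that exact permutation of 3 and 2 libraries allows is 0.1. Standard errors are the log2 fold change over the square root of F. The fit was tested on simulated data. Replicates of a group differed by more than sampling noise (chi-square per degree of freedom 4.19 to 16.1).

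The members and gene lists were chosen with earlier results of these data known. Genes named are the members, their paralogs, the 3 called genes with the smallest p and those over 100 CPM in each list, and the 3 most like the largest called change. Alternatives were DESeq2 1.42.0, other normalizations and filters, a replicate block, unstranded counts, protein-coding genes only and leaving out each library. Sequences were read with Biopython 1.88 from GENCODE transcripts (longest reading frame) and RefSeq promoters, and plots drawn with matplotlib 3.10.9.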

Additional observations from a re-analysis of the deposited data

How the results depend on the processing

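The call of CALCB held in all 13 alternatives, and the count of precursors called higher was 2 in the 8 that left out no library. Leaving out each library in turn it was 1 to 2. The count called lower was 0 in the main comparison, 0 to 2 with each library left out, and 1, GRP, under upper-quartile normalization, at least 1 count in any library, at least 10 counts in every library, the replicate block, protein-coding genes only and DESeq2. TAC1 ranged from -0.70 to 1.01 on the log2 scale and ADCYAP1 from -0.68 to 0.0050 with each library left out, and ADCYAP1 was 0.059 with the block. The log2 ratio of CALCA to CALCB per length in control was 0.29 and turned to -0.30 with the longest transcript.

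Receptors called higher numbered 2 with at least 10 counts in every library or unstranded counts and 2 to 5 with each library left out, and those called lower 1 with the former filter or DESeq2 and 1 to 3 with each library left out. For the processing genes the left-out libraries gave 3 to 7 higher and 1 to 2 lower. Peptidases called higher numbered 2 under upper-quartile normalization or among protein-coding genes, 1 with the block and 1 to 7 with each library left out. Peptidases called lower numbered 1 with the block, 2 by DESeq2 and 0 to 4 with each library left out. The count of other precursors called lower was 0 with the block, 2 with unstranded counts and 0 to 3 with each library left out. The strict filter and the left-out libraries leave fewer genes or samples to test. Counts of called genes moved in both directions across the alternatives. Without control replicate 1, 7 processing genes were called higher and 3 other precursors lower, both above the main comparison. Receptors called lower were then 1, below the main comparison. The cause of the shifts was not tested.

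The replicate numbers are shared by the groups, and nothing in the sources used here says whether they pair cultures. Deviations of same-numbered libraries from their group means correlated at -0.106 and -0.058. The deviations of the 2 co-cultured libraries mirror each other, so these values cannot decide whether the numbers pair cultures. Depth limits VIP, GAL and SST most, whose counts were too few for the filter used.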

Other observations

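Among the tested genes of the lists, reads on the opposite strand outnumbered those of the gene in every library at IAPP, TAC4, GNRH2, GHRL and MEP1B, which were named after these values were seen. IAPP had 100, 145 and 148 such counts in control and 66 and 57 after co-culture against 28 to 58 on its own strand. TAC4 had 36 to 64 against 2 to 25, GNRH2 had 9 to 36 against 4 to 18, GHRL had 34 to 92 against 3 to 19 and MEP1B had 14 to 44 against 4 to 20. TAC4, a tachykinin precursor, stood higher by 1.52 on the log2 scale without passing the test (edgeR adjusted p = 0.0626). For the 10 precursors themselves the opposite strand held at most 6 counts in any library.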
